A study of Homo sapiens with 6 samples.

Results

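The 10 secreted or cell-surface genes of epithelial innate defence followed here in an RNA sequencing series of an oral carcinoma line are the serum amyloid A genes SAA1 and SAA2, the complement gene C3, the lipocalin gene LCN2, the S100 genes S100A7, S100A8 and S100A9, the protease inhibitor genes PI3 and SLPI, and the receptor gene TREM1. They are 10 of the 17280 genes in the deposited table and were picked by symbol. The choice was made knowing that SAA2, LCN2 and TREM1 were strongly lower in 1 of the groups, so the differences of the 10 genes between the groups are given as descriptions, without a test. CAL-27 is an established cell line derived from a human tongue carcinoma, and here it was cultured as spheres, rounded clusters that form without attachment to the dish. Of the 6 libraries, 3 are labelled as normal controls, titled CON, and 3 are titled LF3, after an inhibitor of the contact between beta-catenin and TCF4. The series design gives an exposure to LF3 of 24 h, while the treatment field of each LF3 library names elesclomol-Cu, a copper-carrying compound, for 24 h, so which agent these cells met cannot be settled from the labels. Groups follow the titles. All cells are of 1 line, and no label says whether the replicates were separate cultures, so spreads and p-values may reflect technical variation alone.

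Except for the receptor TREM1, these genes encode proteins that epithelia release as a chemical barrier. Serum amyloid A and C3 belong to the acute-phase and complement systems and are made in the liver and locally in epithelium. Lipocalin 2 withholds iron from bacteria by binding their siderophores. S100A8 and S100A9 pair to form calprotectin, which withholds zinc and manganese, and S100A7, or psoriasin, also binds zinc. PI3 encodes elafin, and SLPI the secretory leukocyte protease inhibitor; both block neutrophil elastase and share the whey acidic protein fold. TREM1 is an activating receptor best known from neutrophils and monocytes. In squamous epithelium many of these genes are induced by IL-17, IL-1 and TNF through NF-kappaB, IkappaB-zeta and C/EBP factors.

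Values are TPM, a gene's share of all transcripts corrected for gene length, so levels of different genes can be set side by side. The sequencing depth behind a TPM value is unknown. A log2 fold change is the mean log2(TPM + 1) of LF3 minus that of CON, given with its limma standard error, and it understates the change of low genes. Group values are means ± SD (n = 3). A gene is called where limma's adjusted p is under 0.05. Of 12195 genes tested, 85.5% were called, 53.2% higher and 32.3% lower, with a median log2 fold change of 0.24. After median-ratio scaling of the libraries that median was 0.042 and 52.3% of calls were higher, against 62.2% as deposited. The squamous markers were present, 7 of 8 at a mean of at least 1 TPM, with summed levels of 1005 to 1010 TPM in CON and 1639 to 1675 in LF3. Most of that difference lay in KRT5, at 102 ± 3.43 and 454 ± 6.66 TPM, and SFN, at 339 ± 18.2 and 608 ± 6.02 TPM, while EPCAM was at 337 ± 17.1 and 337 ± 6.40 TPM and DSG3 at 9.26 ± 0.546 and 7.23 ± 0.805 TPM. KRT14 was at 0.777 ± 0.0757 TPM in CON against 0.447 ± 0.143 TPM in LF3. The 5 fibroblast markers summed to 14.05 to 14.83 TPM in CON and 6.48 to 7.2 in LF3.

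The sequences of SAA1 and SAA2 are shown because 50-base reads cannot always tell these neighbouring genes apart. Their coding sequences, each 369 bases long in GENCODE release 29, differ at 11 positions and are 97.0% identical. The longest stretch without a difference is 186 bases, and 137 of 320 windows of 50 bases are the same in both genes. The 90 coding bases that hold most of the differences, positions 215 to 304 counted from the first base of the start codon, are printed with the 9 differing bases in capitals.
SAA1: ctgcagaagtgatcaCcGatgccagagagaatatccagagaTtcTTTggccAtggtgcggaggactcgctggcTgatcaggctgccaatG
SAA2: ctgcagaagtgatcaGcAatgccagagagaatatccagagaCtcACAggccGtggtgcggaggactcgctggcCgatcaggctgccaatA
A read from this stretch can be placed on 1 of the genes, while a read from the long identical run cannot. Of the 50-base words in the longest coding transcript of SAA1, 54.2% also occur in SAA2, and of those in SAA2, 22.5% occur in SAA1 or in the read-through gene SAA2-SAA4. Of S100A7 words, 15.6% occur in its paralog S100A7A. The other 7 genes shared no 50-base word with another annotated gene. The sources used here do not give how reads with several matches were divided, and the split between SAA1 and SAA2 is uncertain.

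The data showed 7 genes lower and 3 higher in LF3, and the 3 that were higher are the S100 genes.

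**Figure D1:**
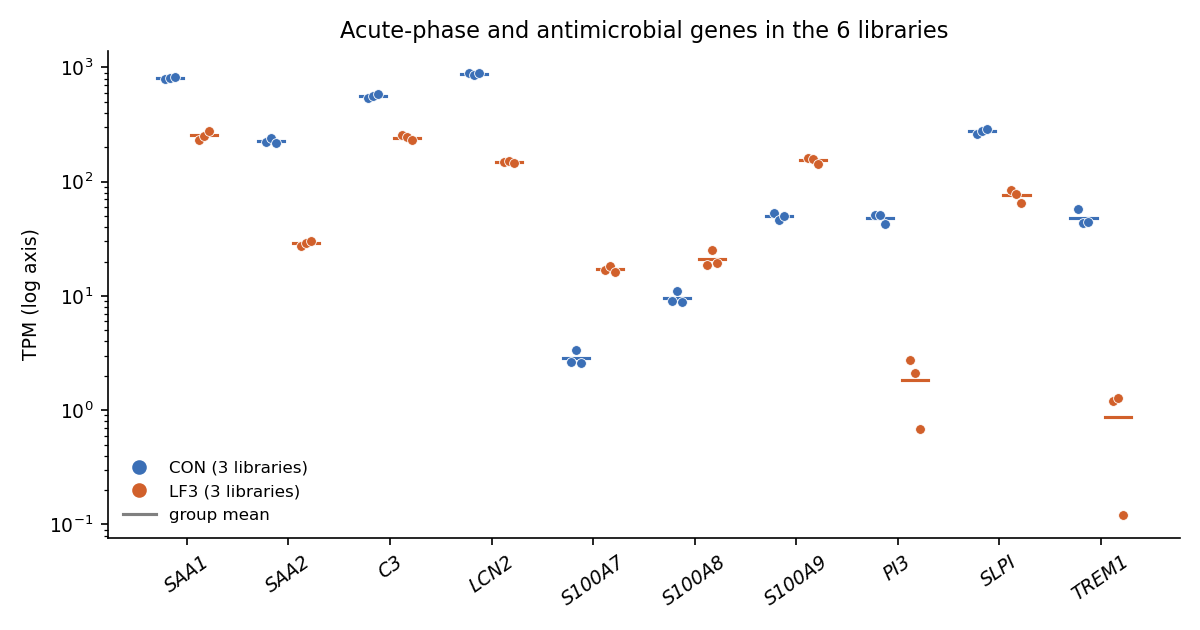
TPM of each gene (log axis) in the 3 CON and 3 LF3 libraries; points are libraries and short lines are group means. In all 10 genes the groups lie apart, with S100A7, S100A8 and S100A9 higher in LF3 and the other 7 lower.

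The 10 genes together summed to 2914 ± 37.5 TPM in CON, against 946 ± 15.0 TPM in LF3. Of this the 3 S100 genes made up 62.2 ± 2.55 TPM in CON and 192 ± 12.4 TPM in the LF3 libraries, while the other 7 made up 2851 ± 38.9 and 753 ± 5.59 TPM. All 10 passed the filter of a mean of 1 TPM. In none of them did the values of the groups overlap, which was the case for 86.2% of all tested genes (32.7% apart and lower in LF3, 53.5% apart and higher). All 7 lower genes had a log2 fold change of -1 or lower, and all 3 higher genes one of 1 or higher. Among all tested genes, 11.1% were called with a log2 fold change of -1 or lower and 20.8% with one of 1 or higher. Since the genes were chosen with this contrast known, nothing is read from these counts.

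SAA1, whose product is a major acute-phase apolipoprotein, stood at 793.79, 808.19 and 822.38 TPM in the CON libraries and at 229.46, 252.68 and 280.22 TPM in the LF3 libraries. Every CON value of SAA1 was well above every LF3 value, and the ratio of CON to LF3 means was 3.18. The log2 fold change of SAA1 was -1.67 ± 0.060. SAA2, which encodes the other acute-phase isoform, was at 224.76, 242.07 and 219 TPM in CON and 27.42, 28.82 and 30.23 TPM in LF3. The SAA2 libraries of each group lay close together, with a ratio of CON to LF3 means of 7.93 and a log2 fold change of -2.94 ± 0.052. SAA2 was thus lower by a larger factor than SAA1, and the ratio of SAA1 to SAA2 within a library went from 3.54 ± 0.208 in CON to 8.80 ± 0.452 in LF3. With reads that match both genes, part of the level of each may come from the other, and this was not tested.

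C3, the central complement component, was at 539.97, 559.33 and 581.25 TPM in CON and 255, 243.75 and 230.46 TPM in LF3. It had the smallest difference of the 7 lower genes, with a ratio of means of 2.30 and a log2 fold change of -1.20 ± 0.043. In LF3 the ranges of C3 and SAA1 overlapped, whereas in CON every SAA1 value exceeded every C3 value.

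LCN2 was the most abundant of the 10 genes in CON, at 889.89, 857.83 and 896.28 TPM, and lay at 147.47, 152.12 and 147.1 TPM in LF3. Its replicates varied little, and the ratio of means was 5.92, with a log2 fold change of -2.56 ± 0.033. LCN2 ranked 150 of 12195 tested genes by mean level in CON and 1096 in LF3.

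The S100 genes went the other way. S100A9 was at 53.36, 45.81 and 49.86 TPM in CON and 160.47, 159.22 and 142.9 TPM in LF3, a ratio of LF3 to CON means of 3.104 and a log2 fold change of 1.62 ± 0.063. Its partner S100A8 was at 9.11, 11.06 and 8.87 TPM in CON and 18.52, 25.17 and 19.53 TPM in LF3, with a ratio of 2.18 and a log2 fold change of 1.04 ± 0.11. Both calprotectin subunits were thus higher in every LF3 library than in any CON library. S100A9 exceeded S100A8 in all 6 libraries, by a ratio of 5.21 ± 0.930 in CON and 7.44 ± 1.17 in LF3. S100A7, the least abundant gene in CON, was at 2.65, 3.39 and 2.6 TPM there and at 16.94, 18.33 and 16.31 TPM in LF3. The ratio of means for S100A7 was 5.97 and its log2 fold change 2.23 ± 0.093, the highest of the 10.

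Both elastase inhibitors were lower in LF3, PI3 by far more than SLPI. SLPI was at 261.2, 278.29 and 289.12 TPM in CON and 84.69, 78.38 and 64.5 TPM in LF3, a ratio of means of 3.64 and a log2 fold change of -1.86 ± 0.084. PI3 was at 51.39, 51.43 and 42.22 TPM in CON and 2.73, 2.12 and 0.68 TPM in LF3, a ratio of 26.2 and a log2 fold change of -4.19 ± 0.23. LF3 replicate 3 held the lowest value of each inhibitor, and the ratio for PI3 ran from 19.9 to 34.5 when 1 library was left out. SLPI exceeded PI3 5.78 ± 0.939-fold in CON and 54.3 ± 35.3-fold in LF3, the latter mean being 34.0-fold without LF3 replicate 3.

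**Figure D2:**
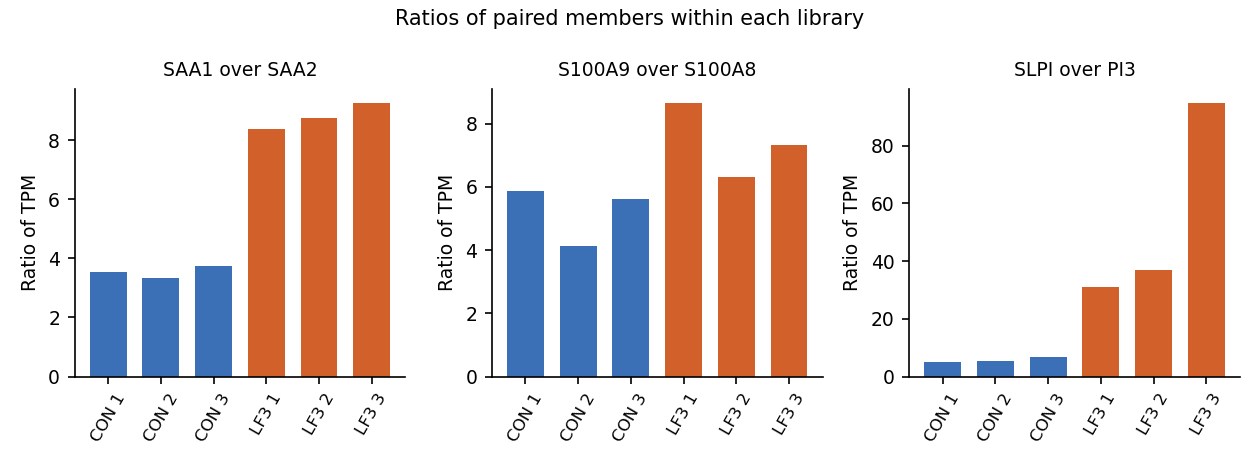
Ratio of TPM of SAA1 to SAA2, S100A9 to S100A8 and SLPI to PI3 in each library; each bar is 1 library, blue for CON and orange for LF3. Every LF3 bar is above every CON bar in each panel, with means of 3.54 and 8.80 for SAA1 over SAA2, and LF3 replicate 3 stands out for SLPI over PI3.

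TREM1 had the largest difference. It was at 57.99, 43.43 and 44.18 TPM in CON and at 1.21, 1.28 and 0.12 TPM in LF3, a ratio of means of 55.8, which ran from 39.0 to 73.0 when 1 library was left out. Its log2 fold change was -4.79 ± 0.23, which ranked 11 of 12195 tested genes from the lowest. LF3 replicate 3 was lowest here too. TREM1 is a myeloid receptor, and the leukocyte marker PTPRC, which encodes CD45, was at 0.02, 0 and 0.02 TPM in CON and listed at 0 in all LF3 libraries. The 9 leukocyte markers in the table summed to 60.9 to 61.5 TPM in the CON libraries and 25.8 to 27.0 in the LF3 libraries, with LCP1 at 44.2 ± 0.536 TPM and 18.3 ± 0.393 TPM and CSF1R at 13.2 ± 0.359 TPM and 5.10 ± 0.440 TPM. The myeloid marker CD14 went the other way, from 0.693 ± 0.236 to 1.99 ± 0.302 TPM. Of the 9, 4 had a mean of at least 1 TPM, namely LCP1, CSF1R, ITGAM and CD14, and 0 were at 0 in every library. The part of these markers' genes in the TREM1 difference was not tested. In such bulk samples, fewer cells that express a gene and less RNA per cell cannot be told apart.

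**Figure D3:**
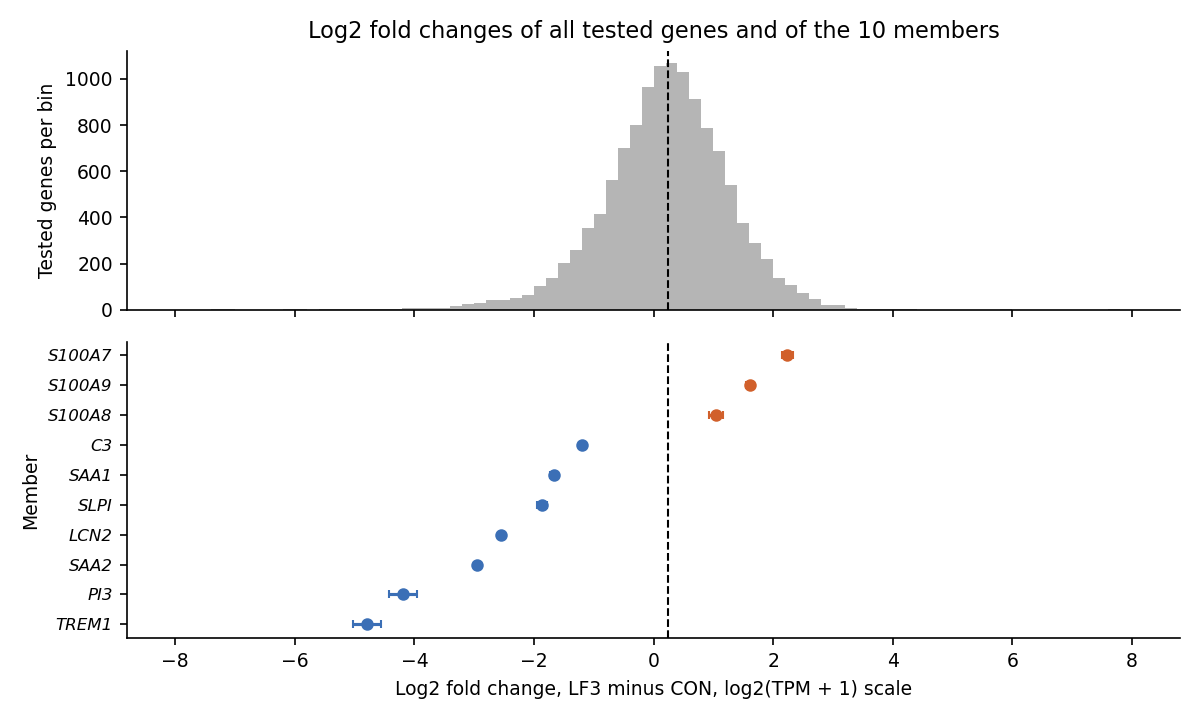
Upper panel, histogram of tested genes by log2 fold change (LF3 minus CON, log2(TPM + 1) scale); lower panel, the 10 genes with their limma standard error, the dashed line being the median of all tested genes, 0.24. The S100 genes lie right of the line, at 1.04 to 2.23, and the other 7 left of it, at -4.79 to -1.20.

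The order of the genes by level differed between the groups. In CON it ran LCN2, SAA1, C3, SLPI, SAA2, S100A9, TREM1, PI3, S100A8 and S100A7, and neighbours overlapped only for S100A9 with TREM1 and TREM1 with PI3. In LF3 the order was SAA1, C3, S100A9, LCN2, SLPI, SAA2, S100A8, S100A7, PI3 and TREM1. There, SAA1 and C3, S100A9 and LCN2, and PI3 and TREM1 overlapped. S100A9, at 49.7 ± 3.78 TPM in CON, was far below LCN2, at 881 ± 20.6 TPM, while in LF3 the values were 154 ± 9.80 and 149 ± 2.80 TPM.

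The 250 bases upstream of the start of LCN2 and TREM1, which were lower, and of S100A9, which was higher, are shown because NF-kappaB, C/EBP, STAT and AP-1 factors are known to bind short motifs in such sequences. They are RefSeq windows of GRCh38.p14, from the base 250 before the start to the base just before it, and capitals mark matches to any of 4 motifs. LCN2 lies at chr9:128149203-128149452 on the plus strand, TREM1 at chr6:41286683-41286932 on the minus strand and S100A9 at chr1:153357604-153357853 on the plus strand.
LCN2: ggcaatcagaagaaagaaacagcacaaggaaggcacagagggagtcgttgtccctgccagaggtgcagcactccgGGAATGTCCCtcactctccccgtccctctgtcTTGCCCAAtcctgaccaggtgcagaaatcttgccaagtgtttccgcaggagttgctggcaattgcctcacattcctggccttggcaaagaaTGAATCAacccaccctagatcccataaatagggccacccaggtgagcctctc
TREM1: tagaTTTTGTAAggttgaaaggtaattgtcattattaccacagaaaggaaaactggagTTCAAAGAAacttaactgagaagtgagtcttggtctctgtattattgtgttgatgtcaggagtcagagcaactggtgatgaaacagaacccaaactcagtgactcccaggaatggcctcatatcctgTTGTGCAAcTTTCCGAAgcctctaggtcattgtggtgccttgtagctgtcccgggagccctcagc
S100A9: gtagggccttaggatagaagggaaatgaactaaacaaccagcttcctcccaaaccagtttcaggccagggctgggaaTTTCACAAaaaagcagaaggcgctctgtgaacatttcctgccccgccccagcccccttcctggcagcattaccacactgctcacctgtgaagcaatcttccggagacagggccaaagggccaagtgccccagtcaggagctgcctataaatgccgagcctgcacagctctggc
The motifs, searched on both strands, were the 10-letter NF-kappaB consensus, TTNCNNAA for C/EBP, TTCNNNGAA for STAT and TGANTCA for AP-1, and no matches in these 3 windows overlapped. LCN2 held 1 NF-kappaB match, GGAATGTCCC, whose consensus reads on the opposite strand, from base -175 to -166, with 1 C/EBP match and 1 AP-1 match, TGAATCA, ending at base -46. TREM1 held 3 C/EBP matches, of which TTGTGCAA and TTTCCGAA lie 1 base apart, and 1 STAT match. S100A9 held 1 C/EBP match. The window of S100A7 and the first-listed of 3 windows of S100A8 held no match. Of all 35116 RefSeq windows, 9.96% held the NF-kappaB motif, 33.2% C/EBP, 6.57% STAT and 6.57% AP-1. A match describes the letters only.

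Other antimicrobial and acute-phase genes also went both ways. The fixed lists were, like the 10 genes, chosen with earlier results of these data known. This list and those below are to be set beside all tested genes, of which 53.2% were called higher and 32.3% lower. Of 34 genes listed, 29 were in the table and 10 were tested, with 4 called higher and 4 lower. Their median log2 fold change was -0.039, which ran from -0.28 to 0.11 when 1 library was left out, against 0.24 for all tested genes. The even split depends on the filter on low values, without which 5 of these listed genes were called higher and 11 lower. RNASE7, a keratinocyte ribonuclease that kills bacteria, fell from 722 ± 20.6 TPM to 100.3 ± 7.12 TPM (log2 fold change -2.84 ± 0.050, limma adjusted p = 4.48e-12). PGLYRP4, a peptidoglycan-binding protein gene, fell from 2.82 ± 0.318 to 0.700 ± 0.131 TPM. The beta-defensin gene DEFB4A rose from 7.90 ± 3.81 to 15.4 ± 1.70 TPM (limma adjusted p = 0.00628), a call lost with robust variances (adjusted p = 0.0675). SERPINA3, an acute-phase inhibitor of cathepsin G, rose from 0.657 ± 0.136 to 4.81 ± 0.170 TPM. It was below 1 TPM in every CON library and passed the filter through its LF3 values. SERPINA1, a gene of the same list named after its values were seen, fell from 104 ± 2.69 to 55.2 ± 1.09 TPM. SAA4, the constitutive serum amyloid A gene next to SAA2, was at 0.85, 4.91 and 4.19 TPM in CON and 0, 0 and 1.37 TPM in LF3. The groups of SAA4 overlap, and its call (limma adjusted p = 0.00663) was lost with robust variances (adjusted p = 0.0695). The read-through gene SAA2-SAA4, which shares sequence with SAA2, fell from 12.3 ± 4.04 to 1.71 ± 0.315 TPM. S100A12, a neighbour of S100A8 and S100A9, was listed at 0 in all CON libraries and at 1.77, 0.46 and 0.9 TPM in LF3.

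Complement genes other than C3 also moved both ways, with 3 of 11 tested genes called higher and 6 lower and a median log2 fold change of -0.59. That median was -0.054 without the filter on low values and -0.997 with a minimum of 5 TPM. CFB, whose product joins C3b in the convertase of the alternative pathway, rose from 94.6 ± 3.33 to 216 ± 23.0 TPM (log2 fold change 1.18 ± 0.068), and C1S, a protease of the classical pathway, from 27.7 ± 0.578 to 100.4 ± 4.13 TPM (1.82 ± 0.047). C1R, named after its values were seen, rose from 48.99 ± 2.39 to 75.8 ± 5.15 TPM. SERPING1, the C1 inhibitor, fell from 14.7 ± 0.843 to 1.05 ± 0.231 TPM, and CLU, or clusterin, from 125 ± 5.19 to 33.4 ± 1.47 TPM. The membrane regulators CD55, CD46 and CD59, also named after their values were seen, had log2 fold changes of -1.02 ± 0.044, -0.997 ± 0.060 and -0.59 ± 0.037. C2, a classical pathway component, and CFI, a protease that inactivates C3b, were not called, with log2 fold changes of -0.14 ± 0.12 and -0.075 ± 0.14 (limma adjusted p = 0.295 and 0.634).

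Among other epithelial protease inhibitors, 5 of 16 tested genes were called higher and 9 lower, with a median log2 fold change of -0.21. WFDC2 and WFDC3, which carry the same whey acidic protein fold as SLPI and PI3, both fell, WFDC2 from 517 ± 18.5 to 190 ± 10.9 TPM and WFDC3 from 26.6 ± 1.35 to 1.79 ± 0.210 TPM (log2 fold changes -1.44 ± 0.046 and -3.31 ± 0.082). CST6, a cystatin of squamous epithelium, fell from 66.9 ± 7.44 to 15.4 ± 2.14 TPM. The squamous carcinoma antigen genes SERPINB3 and SERPINB4, close paralogs whose reads can be confused, rose from 1.76 ± 0.146 to 15.8 ± 1.52 TPM and from 3.02 ± 0.269 to 16.6 ± 3.31 TPM.

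Receptors and partners of the 10 gene products went both ways. Of 20 listed, 16 were in the table and 9 were tested, 3 called higher and 4 lower, with a median log2 fold change of -0.054 (0.051 after quantile normalization). TLR4, a receptor of calprotectin, rose from 0.183 ± 0.0551 to 2.09 ± 0.305 TPM, and its co-receptor CD14 from 0.693 ± 0.236 to 1.99 ± 0.302 TPM. TLR4 and CD14 were below 1 TPM in every CON library and passed the filter only through LF3. With a minimum of 5 TPM neither was tested, and 1 gene of the list was called higher. AGER, the other receptor known for S100 proteins, fell from 4.73 ± 0.767 to 2.12 ± 0.555 TPM. PLSCR1, a scramblase to which SLPI binds, rose from 81.6 ± 3.42 to 174 ± 7.79 TPM, and BSG, or basigin, fell from 1065 ± 31.1 to 772 ± 11.8 TPM. Untested for their low level were MMP9, the partner of lipocalin 2, at 0.627 ± 0.175 TPM in CON against 0.0333 ± 0.0289 TPM in LF3, and SLC22A17, a lipocalin 2 receptor, at 0.17, 0.3 and 0.49 TPM in CON and listed at 0 in LF3. ELANE, the elastase that PI3 and SLPI inhibit, was listed at 0 in 5 of 6 libraries. TYROBP, the signalling partner of TREM1, and FPR2 were not among the 16 found in the table by symbol.

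The genes through which epithelial cells sense IL-17, IL-1, TNF and IL-6 were split, with 9 of 25 called higher and 13 lower and a median log2 fold change of -0.25. The IL-17 receptor gene IL17RA rose from 2.76 ± 0.185 to 5.96 ± 0.130 TPM. IRAK1, a kinase downstream of the IL-1 receptor, rose from 38.5 ± 1.17 to 174 ± 6.42 TPM. IL1RAP, the shared subunit of IL-1 family receptors, fell from 146 ± 7.70 to 26.6 ± 1.57 TPM, and TRAF6, the ligase downstream of both IL-1 and IL-17 receptors, from 42.5 ± 1.77 to 16.9 ± 0.261 TPM. TNFRSF1B, a TNF receptor gene, and LIFR, the receptor gene of leukemia inhibitory factor, fell by 1.21 and 1.09 on the log2 scale. IL6ST, the shared receptor subunit gp130, was at 46.7 ± 2.60 and 47.4 ± 4.29 TPM without a call (log2 fold change 0.017, from -0.029 to 0.092 when 1 library was left out) and was called lower after both rescalings (-0.20 and -0.35).

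Among transcription regulators 6 of 17 were called higher and 9 lower, with a median log2 fold change of -0.095. ELF3, an epithelial ETS factor, fell from 111 ± 6.88 to 22.6 ± 0.974 TPM (log2 fold change -2.25 ± 0.056, limma adjusted p = 4.31e-11). CEBPD rose from 5.81 ± 0.771 to 30.9 ± 3.91 TPM and CEBPB fell from 206 ± 6.71 to 138 ± 12.8 TPM; both encode C/EBP factors of the acute-phase response. NFKBIZ, which encodes IkappaB-zeta, rose from 12.96 ± 0.168 to 25.8 ± 0.900 TPM, NFKB1 from 10.2 ± 0.478 to 36.8 ± 1.87 TPM, and the NF-kappaB inhibitor and target gene NFKBIA from 84.2 ± 2.46 to 262 ± 8.43 TPM. The other NF-kappaB subunit genes, named after their values were seen, were all called lower. RELA fell from 173 ± 5.80 to 113 ± 3.46 TPM and NFKB2 from 88.9 ± 4.35 to 69.5 ± 1.08 TPM. RELB fell from 39.96 ± 3.65 to 25.96 ± 1.70 TPM and REL from 20.5 ± 1.15 to 15.7 ± 2.30 TPM. STAT3 was at 103 ± 1.42 and 96.3 ± 0.341 TPM (log2 fold change -0.095, limma adjusted p = 0.0300). Its call was lost without a variance trend (adjusted p = 0.0743). It was also lost without CON replicate 2 or 3 or any 1 of the LF3 replicates (adjusted p = 0.0519 to 0.0724). STAT3 stayed called lower without the filter on low values and after both rescalings. Its log2 fold change was -0.31 with median-ratio scaling and -0.42 with quantile normalization, so its size depended on how the libraries were scaled.

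A list of genes that respond to IL-17 in epithelium, as many of the 10 genes do, holds cytokine genes and the feedback inhibitor genes TNFAIP3 and ZC3H12A. Of its 12 tested genes, 10 were called higher, both inhibitor genes among them, and 2 lower, and their median log2 fold change was 1.46 against 0.24 for all tested genes. The neutrophil attractants CXCL1 and CXCL2 rose from 13.7 ± 2.29 to 209 ± 12.03 TPM and from 1.92 ± 0.440 to 33.4 ± 2.89 TPM, and IL6 rose from 3.93 ± 0.435 to 23.8 ± 2.37 TPM. The pair that fell was CCL20, which attracts CCR6-bearing lymphocytes and dendritic cells, from 162 ± 10.5 to 20.6 ± 0.995 TPM, and IL36G, an IL-1 family cytokine of keratinocytes, from 8.06 ± 0.607 to 0.487 ± 0.0577 TPM.

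**Figure D4:**
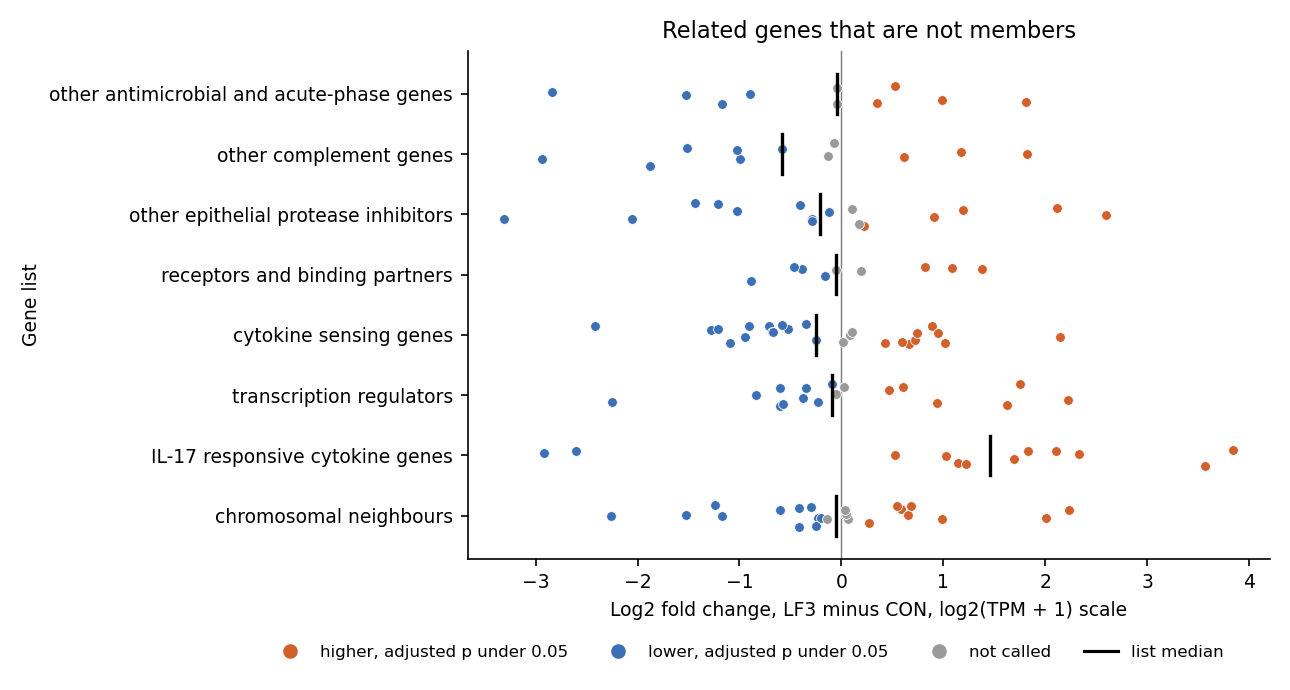
Log2 fold change (LF3 minus CON, log2(TPM + 1) scale) of tested genes in the fixed lists; points are genes, orange called higher, blue called lower, grey not called, and the black bar is the list's median. The IL-17 responsive list, which includes TNFAIP3 and ZC3H12A beside cytokine genes, lies mostly to the right, with a median of 1.46, and CCL20 and IL36G are the blue points of that row.

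The genes next to the 10 on their chromosomes, 3 protein-coding genes on each side in RefSeq order, gave 35 further genes in the table, of which 24 were tested. Of these, 8 were called higher and 11 lower, and the median log2 fold change was -0.055 (-0.13 to 0.052 when 1 library was left out). The 11 include SAA2-SAA4, which shares sequence with SAA2. They also include SAA4 and PGLYRP4, which are counted in the list of other antimicrobial and acute-phase genes as well. Neighbours went either way. PTGES2, beside LCN2, rose from 19.7 ± 1.03 to 96.4 ± 2.89 TPM, and GTF2H1, near SAA1, from 13.1 ± 0.524 to 55.8 ± 2.004 TPM, while TNFSF14, beside C3, fell from 6.03 ± 0.251 to 1.99 ± 0.400 TPM. PGLYRP4, close to S100A9, fell where S100A9 was higher.

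The genes with the pattern most like that of SAA2, LCN2 and TREM1 were found by Euclidean distance between gene-centred log2(TPM + 1) values over the 6 libraries. For SAA2 they were HEPHL1, SLC6A8, ATF3, CCL20 and ERRFI1, at distances of 0.138 to 0.187. The chemokine gene CCL20 is thus near SAA2 in this measure, as is ATF3, a stress-induced transcription factor, at 132 ± 1.90 TPM in CON against 15.8 ± 0.497 TPM in LF3. For LCN2 they were IL1RL1, which encodes the IL-33 receptor, POFUT2, the glycolytic gene ALDOA, MAP7D2 and PAN2, at 0.0801 to 0.147. IL1RL1 was far lower in level, at 5.47 ± 0.334 TPM in CON against 0.0967 ± 0.0115 TPM in LF3, so its likeness holds on the log2(TPM + 1) scale only. The same limit holds for MAP7D2, at 5.4 ± 0.515 TPM in CON against 0.08 ± 0.0436 TPM in LF3. It also holds for HEPHL1 beside SAA2, at 8.89 ± 0.847 TPM in CON against 0.27 ± 0.01 TPM in LF3. TREM1 had no gene as close, its nearest being P4HA1, H2BC8, EFEMP2, ICAM5 and HILPDA at 0.688 to 0.961. P4HA1, a collagen prolyl hydroxylase, and HILPDA, a lipid droplet protein, are both known to be induced by low oxygen. Any part of low oxygen in the TREM1 difference was not tested. The distances mainly express the difference between the 2 groups.

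The direction of each of the 10 genes was the same under all 15 other settings tried.

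**Figure D5:**
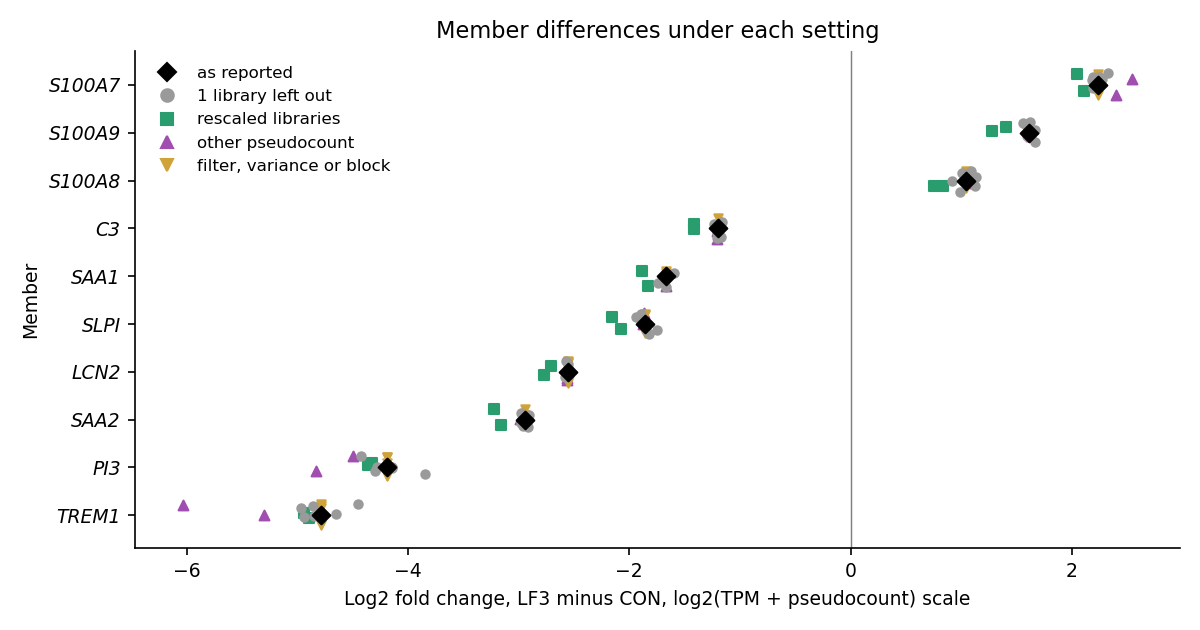
Log2 fold change of each gene (LF3 minus CON, log2(TPM + pseudocount) scale) as reported and under 15 other settings; each symbol is 1 setting, and vertical offsets only separate the points. No gene crosses 0, and TREM1 and PI3 spread most, TREM1 from -6.03 to -4.45.

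S100A8 came closest to 0, at 0.75 after quantile normalization, and TREM1 ranged from -6.03 with a pseudocount of 0.1 to -4.45. PI3 ranged from -4.83 to -3.85. The next widest range was that of S100A7, 2.05 to 2.55.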

How the data were processed

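The series holds 6 libraries of CAL-27 spheres, 3 per group, sequenced as single-end 50-base reads of total RNA per the labels' protocols. The authors deposited 1 table of TPM values per gene. Per the submitters' processing notes HISAT and Bowtie2 were used, with the mouse build GRCm38.p6. Since 17222 gene identifiers (99.7%) matched human genes, no coordinates were taken from that build, and gene neighbours and promoters come from RefSeq (GRCh38.p14). TPM keeps no depth, so the precision from read counts is unknown.

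Genes whose mean reached 1 TPM were tested on log2(TPM + 1) with limma 3.58.1 (R 4.3.3; empirical Bayes with a variance trend, two-sided, Benjamini-Hochberg over 12195 genes, threshold 0.05). With 3 libraries against 3 an exact permutation test of 1 gene cannot go below 0.1. The simulation held 12152 genes, with 50 genes altered at each size. Log2 changes of 0.25 were recovered for 30% of altered genes, of 0.5 for 76%, of 1 for 98% and of 2 for 100%, with 8 false calls. A difference as wide as the real one, where 85.5% passed the threshold, was not simulated. The simulated rates are therefore no measure of the errors in the real comparison. The members and lists were chosen with earlier results of these data known. Named beside the 10 genes are the 5 called genes of each list with the largest changes, a fixed set of receptors, regulators and relatives, and the 5 genes most like SAA2, LCN2 and TREM1; 1 gene that this rule names is not reported here. Alternatives were 2 pseudocounts (0.1 and 0.5), no filter and a 5 TPM filter, median-ratio and quantile scaling, robust variances, no trend, a replicate block and each library left out. Motifs and shared 50-base words were counted with Python 3.11.15, and figures drawn with matplotlib 3.10.9.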

Additional observations from a re-analysis of the deposited data

How the results depend on the processing

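The sign of all 10 genes held under 15 of 15 alternatives. Without the filter on low values, 5 other complement genes were higher (3 with it), 11 other antimicrobial genes lower (4) and 7 receptors lower (4), and the median was -0.054 for other complement genes and -0.087 for other antimicrobial genes. With a minimum of 5 TPM, 1 receptor was higher (3), 2 other antimicrobial genes (4), 8 cytokine sensing genes (13) and 1 IL-17 responsive gene (2) were lower, and the list medians were 0.16 for other antimicrobial genes, 0.081 for cytokine sensing genes, 0.044 for neighbours, -0.997 for other complement genes and -0.16 for receptors; fewer genes are tested there. Quantile normalization gave a receptor median of 0.051 and IL6ST at -0.35, and median-ratio scaling IL6ST at -0.20; the cause was not tested.

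Leaving out 1 library gave 6236 to 6550 genes higher and 3749 to 3937 lower, 2 to 4 receptors higher, an other antimicrobial median of -0.28 to 0.11 (0.012 without CON replicate 3, 0.11 without LF3 replicate 1 and 0.0073 without LF3 replicate 2), a neighbour median of -0.13 to 0.052 (the latter without LF3 replicate 3) and IL6ST at -0.029 to 0.092. Libraries with the same replicate number correlated at 0.0476, 0.106 and 0.160 in their deviations. Among unlike numbers, CON replicate 1 with LF3 replicate 2 gave 0.0737, above its own number, and all other combinations were negative, from -0.17 to -0.013. The numbers were not taken as pairs because no label states that they mark a shared culture or day. A replicate block gave 6536 genes higher and 3986 lower, against 6489 and 3938 without it. None of the 95 results compared was marked as changed, a marking that allows shifts in counts of genes. TPM without depth limits what can be said of genes near 0, such as PI3 and TREM1 in LF3.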
